A study of Mus musculus with 14 samples.

Results

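Uteri of pregnant mice treated with PC61 were compared with uteri of non-pregnant mice, to describe which programmes of pregnancy were present after the antibody. PC61 is an antibody to CD25, a subunit of the receptor for interleukin-2, used in mice to deplete regulatory T cells. Members were chosen by their labels: of the 14 arrays of the series, 9 form the comparison, with 4 arrays of pregnant mice given PC61 and collected on day 12 from fertilization (PC61) and 5 arrays of non-pregnant mice (NP). The other 5 arrays, of pregnant mice given PBS and collected on the same day (PBS), are shown beside them. All mice were C57BL/6 and 8 weeks old, and the tissue of all 3 groups was the uterus. The labels give no dose or time of the injections and no treatment of the non-pregnant mice, and they do not say whether conceptuses were left in the tissue. Replicates are numbered, but nothing says that each is a different animal. The p-values therefore reflect only the scatter among these samples, which may be technical.

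At midgestation the mouse uterus holds the muscular and epithelial uterine wall, the decidua that uterine stroma forms around each implantation site, and the conceptus with its embryo, yolk sac and placenta. Trophoblast of the placenta secretes hormones of the prolactin family and pregnancy-specific glycoproteins, decidual stroma makes its own prolactin relative, and natural killer cells of the decidua are loaded with perforin and granzymes. Regulatory T cells are known for restraining maternal immune responses to the conceptus.

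RNA was measured on Illumina mouse BeadChip arrays. A level is given below as the log2 of the normalized intensity, on which 1 unit is a 2-fold difference, and probes near the background lay between about 4 and 5. Of the scanner probes, 20967 had a detection p under 0.01 on at least 4 arrays, and they gave 10478 named genes. Genes were tested with limma, with p-values adjusted over all of them by the Benjamini-Hochberg method, and an adjusted p under 0.05 was taken as a change. Where a gene was detected on no array of its dimmer group, the fold is a lower bound against the dimmest detected signal and is written as at least N-fold. In whole tissue, fewer cells of a type and less RNA per cell cannot be told apart.

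Apart from arrays 2 and 3, the PC61 arrays differed from each other more than the PBS arrays did, and each result below is therefore shown array by array. Median intensities of all 14 arrays were 93 to 139. The numbers of detected probes on PC61 arrays 1 to 4 were 17483, 19136, 18378 and 19580. Across genes, PC61 arrays 2 and 3 correlated at r = 0.98, while every other pair of PC61 arrays lay between 0.861 and 0.894. PBS arrays correlated at 0.971 to 0.987 with each other and NP arrays at 0.939 to 0.989. PC61 array 4 correlated at 0.984 with the mean of the PBS arrays and at 0.79 with the mean of the NP arrays. PC61 arrays 1, 2 and 3 had 0.92, 0.897 and 0.909 with the PBS mean, against 0.854, 0.877 and 0.881 with the NP mean. On the first principal component, which held 63.3% of the variance, PC61 arrays 1 to 4 stood at 19, -0.278, 2.36 and 65.1, and PC61 array 1 stood apart on the third at -69.1. The SD within a group exceeded 1 for 1176 genes among PC61 arrays, 4 among PBS arrays and 257 among NP arrays.

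Markers of the labelled tissue and of its neighbours were checked on the 4 PC61 arrays. Smooth muscle actin, desmin and the keratin genes Krt8 and Krt18 were detected on all 4, with Krt8 at 10.51, 10.76, 11.53 and 13.64. The smooth muscle markers Myh11 and Actg2 were also detected on all 4, and Cnn1 on arrays 1, 2 and 3. Of the stromal markers, Esr1 and Hoxa11 were detected on all 4, Pgr on arrays 2, 3 and 4, and Hoxa10 on arrays 2 and 3. The adipocyte marker Adipoq was at 9.2 to 12.17 on NP arrays and was detected on PC61 array 3 alone. The trophoblast markers Syna and Synb were above background on array 4 alone, and the third, Ascl2, on arrays 2 and 4. The uterine NK granzymes Gzmd, Gzme and Gzmg were not above background on array 1. Of 3 skeletal muscle markers, Myog was not above background on arrays 2 and 3, while Myl1 and Actc1 were detected on all 4 arrays, with Myl1 at 12.84, 6.95, 6.72 and 12.04. The part that unequal amounts of conceptus, decidua and uterine wall had in the differences among the PC61 arrays was not tested.

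Between PC61 and NP arrays, 2967 of the 10478 genes passed the test (28.3%), of which 1439 were higher (13.7%) and 1528 were lower (14.6%) in PC61. The counts of every list below are to be read beside these 2 shares. A change of at least 2-fold was found for 1629 genes (15.5%), 936 higher (8.93%) and 693 lower (6.61%). The median log2 difference over all genes was -0.02. The PC61 and NP arrays did not overlap for 2250 genes (21.5%), 1025 higher (9.78%) and 1225 lower (11.7%). Without PC61 array 1 the count of changed genes was 3095, without PC61 array 4 it was 2612, and without both it was 3193. Between PC61 and PBS arrays, limma called 0 of 10478 genes (0%), with 1621 at an unadjusted p under 0.05 and a lowest adjusted p of 0.154. That count was 1529 without PC61 array 4, 2 without PC61 array 1, and 3564 without both, while the method without background correction and the authors' own normalized values each gave 0.

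Of the genes tested, 653 were above background on none of the NP arrays. Since a gene was tested only if at least 4 arrays detected it, each of these had to be detected in pregnant uterus, and the counts describe the arrays without testing them. All 5 PBS arrays detected 523 of the 653. Of these 523 genes, PC61 array 1 detected 345 (66%), array 2 detected 308 (58.9%), array 3 detected 320 (61.2%) and array 4 detected 519 (99.2%). PC61 array 4 thus detected nearly all of them, and the other PC61 arrays a smaller share each. All 4 PC61 arrays detected 211 of the 653, among them embryonic globins, neuronal genes and yolk sac apolipoproteins. A further 95 were detected on arrays 2, 3 and 4 and not on 1, including 5 placental prolactins and the granzymes Gzme, Gzmf and Gzmg. Another 94 were detected on arrays 1 and 4 alone, including muscle and cartilage genes such as Myog and Col9a1, and 106 on array 4 alone, including the syncytin genes Syna and Synb. Of the genes detected on all NP arrays, 7893 were detected on all 4 PC61 arrays and 55 on none of them, and 47 of the 55 were detected on no PBS array either.

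**Figure D1:**
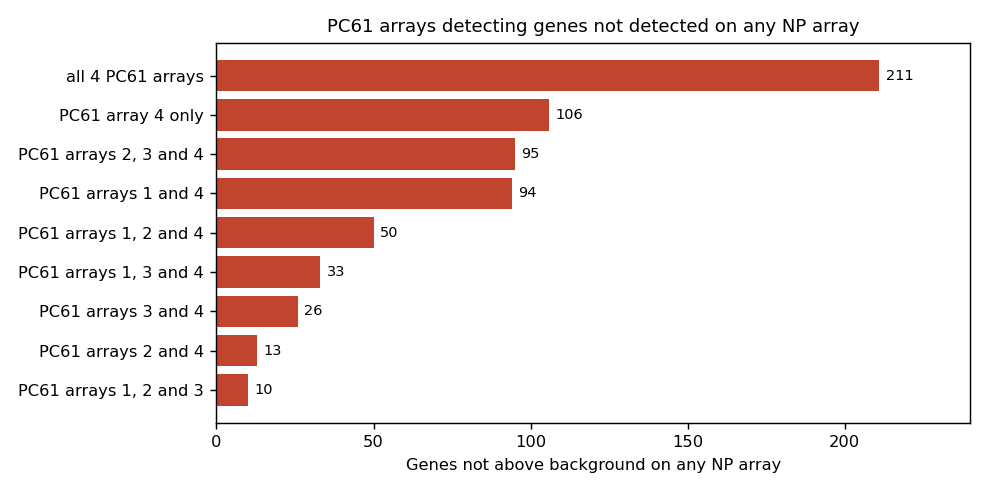
Number of genes (horizontal axis) that were above background on no NP array, by the PC61 arrays that detected them (rows; combinations with fewer than 10 genes are not drawn). The longest bar holds the 211 genes detected on all 4 PC61 arrays, followed by 106 on array 4 alone, 95 on arrays 2, 3 and 4, and 94 on arrays 1 and 4.

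Embryonic globins were among the 10 largest rises of the comparison, which were taken only from genes whose PC61 and NP arrays did not overlap. Hbb-y, the embryonic beta-type globin, had log2 levels of 14.86, 14.71, 13.91 and 14.88 on PC61 arrays 1 to 4, 14.67 to 14.89 in PBS and 4.32 to 4.74 in NP. All 4 PC61 arrays were far above every NP array, which gave at least 680-fold (log2 difference 10.1, SE 0.19, limma adjusted p = 7.4e-14). Hba-x, the embryonic alpha-type globin, had 14.11, 12.22, 11.34 and 14.06 in PC61, 14.36 to 14.64 in PBS and 4.37 to 4.78 in NP, at least 215-fold above NP (adjusted p = 3.95e-09). Hbb-bh1, a further embryonic beta-type globin, had 13.07, 10.9, 9.96 and 13.15 in PC61, 13.11 to 13.83 in PBS and 4.35 to 5.09 in NP, at least 96.1-fold (adjusted p = 1.25e-07). For Hba-x and Hbb-bh1, PC61 arrays 2 and 3 were lower than arrays 1 and 4, yet still well above NP. The difference of Hbb-y between PC61 and PBS was -0.19 with a 95% interval of -0.6 to 0.21, and that of Hba-x was -1.58 with an interval of -2.53 to -0.64 (adjusted p = 0.644 and 0.156).

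The promoters of Hbb-y and Hba-x are printed because these embryonic globin genes had the largest rises against NP, and that of Guca2b because it was the largest rise outside the globins. Each covers 250 bases before to 50 after the start of the gene, 5′ to 3′ on the strand of the gene, from RefSeq on GRCm38.p6. Hbb-y lies at chr7:103853158-103853457 on the minus strand, Hba-x at chr11:32276350-32276649 on the plus strand and Guca2b at chr4:119658896-119659195 on the minus strand. Capitals mark matches on either strand to the letters of 3 known motifs: the CACCC box (CACCC), the CCAAT box (CCAAT) and the core bound by GATA factors (AGATAA).
Hbb-y: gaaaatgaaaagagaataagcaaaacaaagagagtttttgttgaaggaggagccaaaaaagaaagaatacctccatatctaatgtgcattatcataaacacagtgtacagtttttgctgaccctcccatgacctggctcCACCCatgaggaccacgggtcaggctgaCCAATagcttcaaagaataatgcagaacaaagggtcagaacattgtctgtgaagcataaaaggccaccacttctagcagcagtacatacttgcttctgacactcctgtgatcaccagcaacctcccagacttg
Hba-x: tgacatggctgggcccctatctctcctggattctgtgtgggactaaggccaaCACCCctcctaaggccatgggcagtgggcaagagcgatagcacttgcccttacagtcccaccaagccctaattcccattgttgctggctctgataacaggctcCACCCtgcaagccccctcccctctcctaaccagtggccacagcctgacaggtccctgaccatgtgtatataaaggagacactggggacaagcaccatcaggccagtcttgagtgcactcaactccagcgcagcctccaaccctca
Guca2b: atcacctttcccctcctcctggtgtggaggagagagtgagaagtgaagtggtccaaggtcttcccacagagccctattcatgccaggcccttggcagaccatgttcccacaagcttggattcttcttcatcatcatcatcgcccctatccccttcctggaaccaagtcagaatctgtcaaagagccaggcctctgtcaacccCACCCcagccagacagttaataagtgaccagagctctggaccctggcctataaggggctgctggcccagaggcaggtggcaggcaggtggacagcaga
Hbb-y had a CACCC match beginning at position -111 and a CCAAT match at -83, counted from the start of the gene. Hba-x had CACCC matches at -198 and -95, and Guca2b had one at -48. The letters AGATAA were in none of the 3 windows, while other forms of the GATA core, such as TGATAA, were not searched or marked. Of all 32851 promoters of this length in the table, 57.5% held CACCC, 37.4% held CCAAT and 11.2% held AGATAA on either strand, and a match describes letters, not a bound site.

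Of 22 embryonic blood genes listed, 14 were measured, and 10 of them rose and 0 fell against NP (13.7% and 14.6% of all genes). Slc4a1, the anion exchanger of the red cell membrane, had 13.86, 10.31, 9.54 and 13.25 in PC61, 13.27 to 13.56 in PBS and 4.47 to 5.23 in NP, a 127-fold rise (adjusted p = 2.88e-06). Alas2, the first enzyme of haem synthesis in red cells, had 11.4, 9.51, 10.56 and 11.31 in PC61, 10.89 to 11.43 in PBS and 5.07 to 6.95 in NP (22.3-fold, adjusted p = 9.31e-07). The mean level of the list above NP was 4.73, 2.59, 2.37 and 4.41 on PC61 arrays 1 to 4 beside 4.45 to 4.75 on PBS arrays. Array 1 was inside the PBS range, array 4 just below it, and arrays 2 and 3 lay between PBS and NP. The list's median log2 difference was 2.17 over all arrays and 0.59 without arrays 1 and 4.

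Plasma protein and lipid transport genes made by yolk sac and fetal liver rose in 17 of 22 measured members of 27 listed, and 1 fell, Sox17, a factor of endoderm and also of uterine glands. Apoa1, an apolipoprotein, had 12.82, 7.95, 11.04 and 13.45 in PC61, 13.28 to 13.6 in PBS and 4.28 to 4.56 in NP, at least 70.2-fold (adjusted p = 1.19e-05). Ttr, a carrier of thyroid hormone, had 12.52, 9.8, 10.49 and 13.86 in PC61, 13.37 to 13.92 in PBS and 4.39 to 7.04 in NP (94.5-fold, adjusted p = 9.8e-06). Afp, alpha-fetoprotein, had 11, 6.39, 8.74 and 12.66 in PC61, 11.08 to 12.47 in PBS and 4.3 to 4.61 in NP, at least 22.9-fold (adjusted p = 0.000446). In all 3 genes PC61 array 2 was the lowest and array 4 the highest. No PC61 array overlapped NP in any of them, which for Apoa1 the rule of choice required. Apoa2 followed the same order with 11.29, 6.1, 8.9 and 12.63 in PC61 and 4.63 to 5.1 in NP (adjusted p = 0.000941). Fga, a fibrinogen chain, had 9.82, 7.09, 8.53 and 10.75 in PC61 and 4.3 to 4.6 in NP (adjusted p = 1.07e-05). Amn, the amnionless subunit of the receptor that yolk sac endoderm uses for uptake, varied less, with 9.59, 8.76, 9.39 and 10.21 in PC61, 10 to 10.57 in PBS and 4.44 to 4.82 in NP, at least 19.7-fold (adjusted p = 1.61e-09).

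Of the neuronal genes above background on no NP array, 9 of 12 were detected on all 4 PC61 arrays, beside 211 of all 653 such genes. Of 26 listed, 16 were measured, and 15 rose and 0 fell. Elavl3, an RNA-binding protein of neurons, had 10.05, 10.15, 9.47 and 10.14 in PC61, 9.81 to 10.04 in PBS and 4.28 to 4.44 in NP, at least 27.3-fold (adjusted p = 5.4e-12). Dcx, the doublecortin of migrating neurons, had 9.87, 9.2, 8.79 and 9.34 in PC61, 8.73 to 9.67 in PBS and 4.33 to 4.6 in NP, at least 17.3-fold (adjusted p = 1.33e-09). No PC61 array was below PBS in Dcx, and only array 3 was below PBS in Elavl3. Stmn2, a microtubule regulator of growing axons, had 11.18, 10.71, 10.48 and 10.93 in PC61, 10.56 to 10.91 in PBS and 6.58 to 7.37 in NP (15.6-fold, adjusted p = 1.48e-09). Crmp1, a mediator of axon guidance, had 9.4, 9.43, 8.26 and 8.9 in PC61, 8.49 to 9.44 in PBS and 4.35 to 4.74 in NP (at least 14-fold, adjusted p = 6.15e-09). The difference between PC61 and PBS was 0.04 for Elavl3 with a 95% interval of -0.28 to 0.36, -0.01 for Dcx with -0.47 to 0.46, and 0.1 for Stmn2 with -0.3 to 0.49. The list stood 3.28, 2.86, 2.15 and 3.4 above NP on PC61 arrays 1 to 4 beside 3.23 to 3.45 on PBS arrays.

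Imprinted genes of fetal and placental growth rose in 11 of 14 measured members of 21 listed, and 0 fell (1 fell without PC61 array 4). Dlk1, a growth regulator of fetal tissues, had 14.07, 10.55, 10.85 and 13.81 in PC61, 13.58 to 13.91 in PBS and 4.42 to 5.53 in NP (151-fold, adjusted p = 6.4e-07). Igf2, the fetal insulin-like growth factor, had 14.97, 12.23, 12.87 and 14.74 in PC61, 14.59 to 14.93 in PBS and 8.97 to 9.42 in NP (22.4-fold, adjusted p = 3.28e-06). Peg3, a zinc finger gene expressed from the paternal copy, had 11.29, 7.91, 8.34 and 11.86 in PC61, 11.33 to 11.73 in PBS and 5.63 to 6.45 in NP (13.1-fold, adjusted p = 0.00063). In these 3 genes arrays 1 and 4 were close to PBS and arrays 2 and 3 lay between PBS and NP. Nnat, neuronatin of the developing brain, was more even, with 9.58, 9.38, 8.78 and 9.15 in PC61, 8.97 to 10.24 in PBS and 4.28 to 5.24 in NP (23.1-fold, adjusted p = 1.68e-08).

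Genes of embryonic muscle, cartilage and limb separated the PC61 arrays into pairs. PC61 arrays 1 and 4 stood 3.17 and 2.38 above NP over the list, where PBS arrays had 2.24 to 2.51, while PC61 arrays 2 and 3 stood at 0.03 and -0.09, inside or just below the NP range of -0.05 to 0.11. Of 27 listed, 16 were measured, and 7 rose and 2 fell. Actc1, the actin of embryonic heart and skeletal muscle, had 11.84, 6.5, 6.12 and 11.38 in PC61, 10.91 to 11.38 in PBS and 4.36 to 5.04 in NP, at least 13.7-fold (adjusted p = 0.00468). Col2a1, the collagen of cartilage, had 12.19, 8.2, 8.26 and 11.17 in PC61, 10.74 to 11.31 in PBS and 4.28 to 4.64 in NP, at least 27.3-fold (adjusted p = 1.68e-05). Arrays 2 and 3 were above NP in both genes and far below the other pair. Myog, a factor of muscle differentiation, had 7.84, 4.96, 4.53 and 6.63 in PC61, 6.34 to 7.17 in PBS and 4.37 to 4.71 in NP, and was detected on arrays 1 and 4 alone (log2 difference 1.45, adjusted p = 0.0408). Myod1, the factor that commits cells to muscle, had 6.51, 4.76, 4.33 and 5.6 in PC61 and 4.28 to 4.81 in NP and did not pass (adjusted p = 0.0805). Actn2, an actinin of the muscle Z-disc, had 11.31, 6.62, 7.27 and 10.46 in PC61 and 6.42 to 7.08 in NP (adjusted p = 0.0346). The list rested on single arrays: 2 members rose without PC61 array 1, also 2 without array 4, and 11 without array 3, while 1 fell without array 2, 3 or 4. Myod1 passed without PC61 array 3 (log2 difference 1.15, adjusted p = 0.0128). The call on Myog ended without any 1 of 11 arrays, among them PC61 arrays 1 and 4 (log2 difference 0.84 and 1.24), and that on Actn2 without any 1 of 5, among them the same arrays (1.43 and 1.72). Of the members that fell, Msx1, a homeobox gene also of uterine epithelium and stroma, had 8.96, 7.7, 7.47 and 8.76 in PC61, 8.76 to 9.1 in PBS and 10.56 to 12.43 in NP (9.76-fold lower, adjusted p = 2.19e-05).

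**Figure D2:**
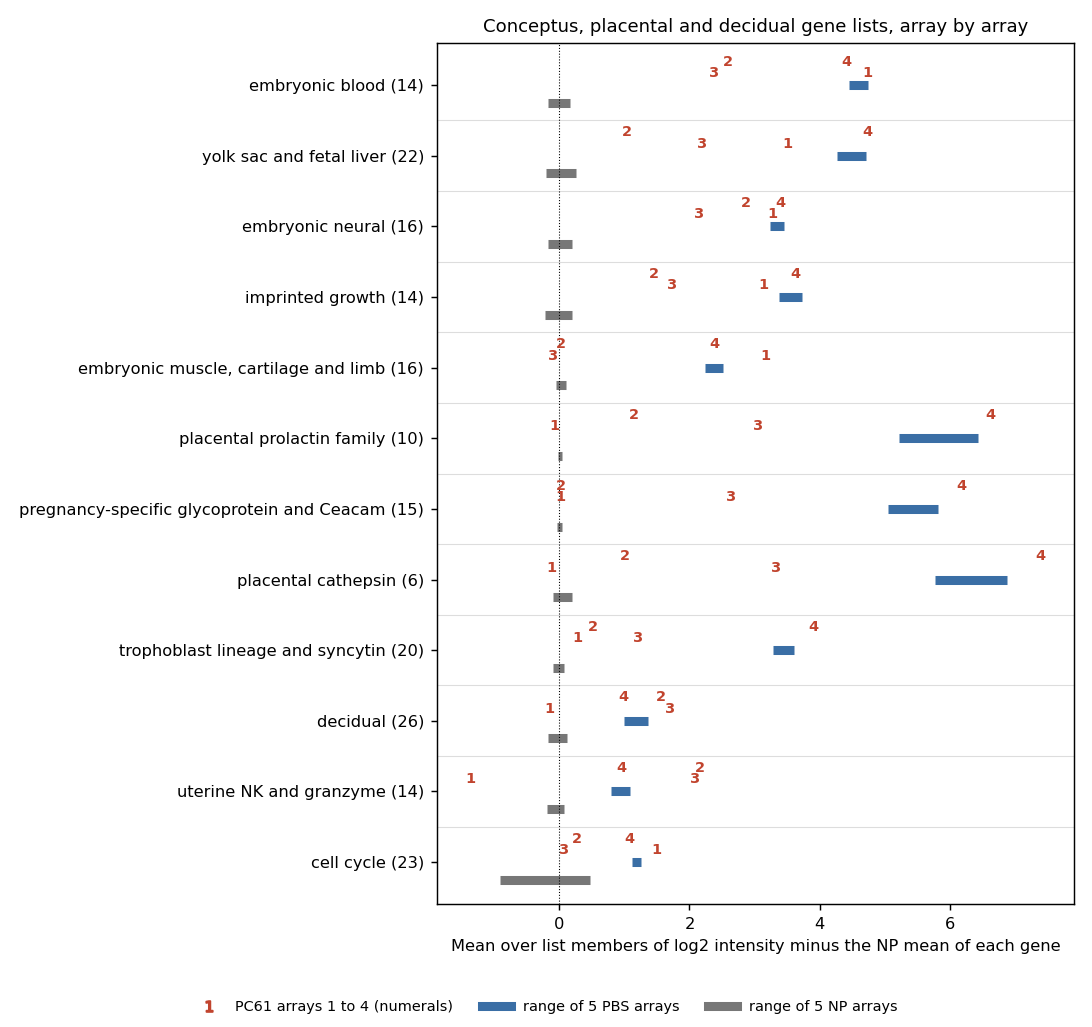
Mean log2 level above the NP mean over the measured members of each list (number in brackets), with PC61 arrays 1 to 4 as numerals (offset in height for legibility), the range of the 5 PBS arrays as a blue bar and that of the 5 NP arrays as a grey bar. Array 1 lies near or above PBS in the embryonic blood, neural and muscle lists and near NP in the prolactin, glycoprotein and decidual lists, while arrays 2 and 3 stand with NP in the muscle list and above PBS in the NK list.

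The mean of the placental prolactin genes was graded across the PC61 arrays in the order 1, 2, 3 and 4. The placental prolactin list stood -0.07, 1.14, 3.05 and 6.62 above NP on PC61 arrays 1 to 4 beside 5.22 to 6.43 on PBS arrays. Prl2b1, a trophoblast prolactin, had 4.44, 6.87, 11.15 and 14.41 in PC61, 13.25 to 14.05 in PBS and 4.27 to 4.4 in NP, at least 16.4-fold (adjusted p = 0.0152). Prl2c2, a proliferin of giant cells, had 4.27, 7.27, 9.41 and 12.32 in PC61, 11.29 to 12.66 in PBS and 4.24 to 4.47 in NP (at least 8.79-fold, adjusted p = 0.0126). In both genes PC61 array 1 was not above background, arrays 2 and 3 lay between the groups, and array 4 lay within or above the PBS range. Prl2c5 had 4.33, 6.51, 8.7 and 12.57 in PC61, 10.62 to 12.29 in PBS and 4.24 to 4.44 in NP (adjusted p = 0.0211), and Prl4a1 had 4.23, 6.11, 7.97 and 12.2 in PC61, 11.48 to 12.18 in PBS and 4.25 to 4.44 in NP (adjusted p = 0.0313). Of 22 listed genes 10 were measured, all of them detected on no NP array, and 5 rose and 0 fell. That count was 3 without PC61 array 3 and 7 without array 1 or array 2. With only PC61 and NP arrays in the fit, the calls on Prl2b1, Prl2c2 and Prl2c5 ended (adjusted p = 0.0636, 0.0544 and 0.0734 in limma), and that on Prl2c5 also without background correction and with the authors' normalized values (0.0635 and 0.0679). The log2 difference of Prl2b1 was 3.17 without PC61 array 4, that of Prl2c2 was 2.61, that of Prl2c5 was 2.21 and that of Prl4a1 was 1.76. The call on Prl4a1 ended without PC61 array 3 (3.17) or without any 1 of the NP arrays. Apart from fits with 1 PC61 array as a group, it ended in 9 of 26 alternative settings, these removals among them. The difference of Prl2b1 between PC61 and PBS was -4.52 with a 95% interval of -7.45 to -1.59 (adjusted p = 0.175).

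Of 21 pregnancy-specific glycoprotein and Ceacam genes listed, which encode proteins that trophoblast releases into maternal blood or carries on its surface, 15 were measured and 0 passed the test in either direction. Psg18 had 4.46, 4.45, 7.5 and 11.31 in PC61, 10.27 to 11.93 in PBS and 4.26 to 5.13 in NP (adjusted p = 0.0947). Psg19 had 4.22, 4.41, 7.62 and 12.27 in PC61, 10.76 to 11.96 in PBS and 4.24 to 4.74 in NP (adjusted p = 0.102). Psg16, dimmer throughout, had 4.33, 4.51, 4.33 and 7.57 in PC61, 5.05 to 7.32 in PBS and 4.29 to 4.43 in NP (adjusted p = 0.315). Arrays 1 and 2 were not above background in any of the 3 genes, and array 4 lay inside or above the PBS range. The list stood 0.01, 0.02, 2.64 and 6.18 above NP on PC61 arrays 1 to 4 beside 5.05 to 5.82 on PBS arrays. Without PC61 array 1, and likewise without array 2, 10 members rose, with Psg18 at a log2 difference of 3.25 in both cases and Psg19 at 3.66 and 3.6.

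The list of placental cathepsins, proteases of trophoblast, stood -0.13, 1.01, 3.33 and 7.39 above NP on PC61 arrays 1 to 4. Of the genes named here, Ctsq and Ctsm were detected on arrays 3 and 4 alone, so that arrays 1 and 2 cannot be ranked in them. Ctsj had 4.42, 8.84, 12.8 and 14.7 in PC61, 14.1 to 14.59 in PBS and 4.32 to 4.39 in NP, at least 32.1-fold (adjusted p = 0.00644). It was the 1 member that rose of 6 measured and 9 listed, and 3 rose without PC61 array 1 or array 2. Ctsq had 4.31, 4.44, 9.47 and 13.71 in PC61, 12.63 to 13.44 in PBS and 4.28 to 4.39 in NP (adjusted p = 0.0636; 4.88 on the log2 scale without PC61 array 1 and 4.84 without array 2, both past the threshold). Ctsm had 4.44, 4.47, 5.48 and 10.67 in PC61, 8.25 to 10.33 in PBS and 4.33 to 4.46 in NP (adjusted p = 0.163). Only array 4 reached the PBS level of these proteases.

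Among 20 measured of 27 trophoblast lineage and syncytin genes, 7 rose and 2 fell (13.7% and 14.6% of all genes). Syna and Synb encode the syncytins that fuse trophoblast into the syncytial layers. Synb had 4.33, 4.43, 4.53 and 8.64 in PC61, 7.99 to 8.68 in PBS and 4.3 to 4.4 in NP (adjusted p = 0.227), and Syna had 4.6, 4.33, 4.21 and 7.04 in PC61, 6.46 to 7.25 in PBS and 4.28 to 4.38 in NP (adjusted p = 0.242). Hand1, a factor of giant cells, had 4.39, 4.28, 4.61 and 6.76 in PC61, 6.12 to 6.97 in PBS and 4.23 to 4.55 in NP (adjusted p = 0.228). All 3 were detected on PC61 array 4 alone. Rhox9, a homeobox gene of placenta, had 6, 6.6, 10.36 and 14.11 in PC61, 13.48 to 13.84 in PBS and 4.28 to 4.41 in NP (at least 17-fold, adjusted p = 0.00589). Tfap2c, a factor of trophoblast stem cells, had 6.67, 7.92, 9.07 and 12.46 in PC61, 11.86 to 12.19 in PBS and 5.87 to 6.74 in NP (adjusted p = 0.0185), and its log2 difference of 2.7 was 1.55 without array 4. That call ended with only PC61 and NP arrays in the fit (limma adjusted p = 0.0722). Esrrb and Gata3, a nuclear receptor and a factor of early trophoblast, were less graded. Esrrb had 6.79, 6.29, 6.43 and 7.7 in PC61, 7.06 to 7.96 in PBS and 4.22 to 4.32 in NP (at least 3.07-fold, adjusted p = 3.86e-06). Gata3 had 6.26, 9.74, 8.93 and 9.25 in PC61, 8.82 to 9.15 in PBS and 5.03 to 5.5 in NP (9.44-fold, adjusted p = 0.000245). Without PC61 array 2 the list had 11 rises, and its falls numbered 0 without array 1 and 1 without array 2 or 3.

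**Figure D3:**
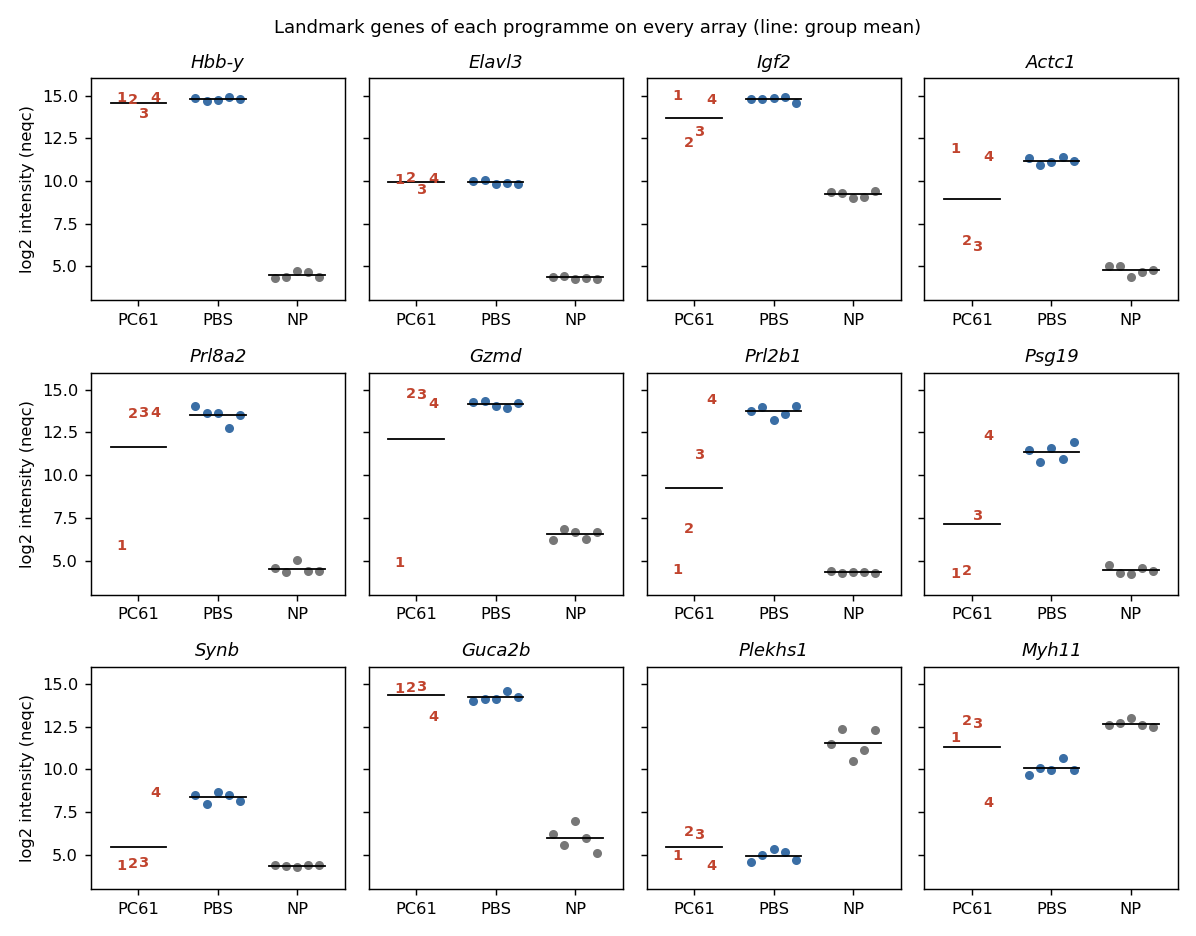
Log2 level (vertical axis) of 12 genes on every array, with PC61 arrays as numerals 1 to 4, PBS arrays as blue points, NP arrays as grey points and group means as lines. The embryonic genes Hbb-y and Elavl3 and the uterine gene Guca2b are high on all 4 PC61 arrays, Prl8a2 and Gzmd are low on array 1 alone, Actc1 is low on arrays 2 and 3, and Synb is high on array 4 alone.

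The mean of the decidual list was higher on PC61 arrays 2, 3 and 4 than on array 1, while single members differed in their order. Prl8a2, the prolactin relative that decidual stroma secretes, had 5.85, 13.58, 13.62 and 13.65 in PC61, 12.78 to 14.02 in PBS and 4.3 to 5.04 in NP, at least 89.9-fold (adjusted p = 0.000542). PC61 array 1 lay near the NP arrays and the other 3 within the PBS range. Without array 1 its log2 difference was 9.08 in place of 7.14. Prss35, a serine protease of decidua, had 7.5, 9.82, 9.09 and 9.47 in PC61, 8.82 to 9.23 in PBS and 4.28 to 4.47 in NP (at least 13.8-fold, adjusted p = 1.47e-07). Sct, secretin, had 8.61, 9.64, 12.51 and 14.82 in PC61, 14.51 to 14.89 in PBS and 4.62 to 7 in NP (55.4-fold, limma adjusted p = 0.000364). It was graded across the PC61 arrays as the placental prolactin list was, unlike Prl8a2. Fkbp5, an immunophilin induced by progesterone and glucocorticoids, had 8.93, 8.94, 8.91 and 8.27 in PC61, 8.38 to 8.82 in PBS and 6.74 to 8.04 in NP (2.68-fold, adjusted p = 0.000448). Wnt4, a signal of decidual differentiation, had 7.98, 7.84, 7.86 and 6.77 in PC61 and 6.47 to 7.4 in NP (adjusted p = 0.141; 0.034 without PC61 array 4, with a log2 difference of 0.93). Wnt6 had 7.65, 5.38, 5.65 and 6.68 in PC61, 5.97 to 7.19 in PBS and 5 to 5.53 in NP (adjusted p = 0.0349), a call that ended without any 1 of 6 arrays, among them PC61 arrays 1 and 4 (log2 difference 0.72 and 1.04). Of 34 decidual genes listed, 26 were measured, and 10 rose and 3 fell. The list stood -0.16, 1.56, 1.7 and 0.99 above NP on PC61 arrays 1 to 4 beside 1 to 1.36 on PBS arrays.

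Granzymes of uterine natural killer cells showed the same split, with PC61 array 1 at the background. Gzmd had 4.84, 14.77, 14.69 and 14.17 in PC61, 13.94 to 14.33 in PBS and 6.18 to 6.85 in NP (48.3-fold, adjusted p = 0.0121; 0.0561 with only PC61 and NP arrays in the fit). Array 1 lay below every NP array, and arrays 2 and 3 lay above every PBS array. Gzme had 4.56, 11.27, 11.24 and 10.25 in PC61, 9.77 to 10.62 in PBS and 4.31 to 4.9 in NP (at least 17.7-fold, adjusted p = 0.0024), and Gzmg had 4.44, 12.52, 11.84 and 12 in PC61, 10.85 to 11.97 in PBS and 4.33 to 4.46 in NP (at least 32.4-fold, adjusted p = 0.00231). Gzmf had 4.55, 7.72, 7.28 and 7.3 in PC61, 5.7 to 7.26 in PBS and 4.29 to 4.72 in NP (at least 2.89-fold, adjusted p = 0.00415). Il15, the cytokine that sustains natural killer cells, fell, with 6.35, 8.44, 8.54 and 6.26 in PC61, 6.25 to 7.27 in PBS and 9.37 to 10.89 in NP (7.1-fold lower, adjusted p = 0.00052). Of 24 genes listed 14 were measured, and 5 rose and 1 fell. The falls numbered 3 without PC61 array 2 and 6 without array 3. The list stood -1.36, 2.16, 2.09 and 0.96 above NP on PC61 arrays 1 to 4 beside 0.8 to 1.09 on PBS arrays.

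Cell cycle genes had 3 rises and 0 falls among 23 measured of 29 listed, beside 13.7% and 14.6% of all genes. The list's median log2 difference was 0.59, and -0.15 without PC61 arrays 1 and 4. Rrm2, the regulated subunit of ribonucleotide reductase, had 9.16, 11.16, 11.45 and 9.51 in PC61, 9.81 to 10.46 in PBS and 5.52 to 6.96 in NP (16.2-fold, adjusted p = 7.81e-06). Rrm1, its partner subunit, had 9.84, 11.19, 11.05 and 9.82 in PC61 and 8.38 to 9.88 in NP (adjusted p = 0.0193), and the call ended without PC61 array 2 (log2 difference 1.04) or array 3 (1.09). Cdt1, a licensing factor of replication, had 10.31, 8.64, 8.51 and 10.15 in PC61 and 8.21 to 8.7 in NP (adjusted p = 0.0452), a call that ended without any 1 of 12 arrays (log2 differences 0.65 to 1.01). Top2a, Ccne1 and Cdk1 did not pass (adjusted p = 0.192, 0.114 and 0.724), with Top2a at 10.05, 9.38, 8.7 and 9.8 in PC61 and 7.52 to 9.44 in NP. Ccne1, a cyclin of S phase entry, had 7.85, 5.6, 5.23 and 7.71 in PC61 and 5.15 to 6.19 in NP, and passed without PC61 array 2 (1.35) or array 3 (1.48). Cdk1, the mitotic kinase, had 10.32, 9, 8.93 and 9.95 in PC61 and 7.82 to 10.29 in NP. The ribonucleotide reductase genes were highest on arrays 2 and 3, and the other genes named here on arrays 1 and 4.

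Several secretory and membrane genes were high on all 4 PC61 arrays. Guca2b, uroguanylin, a secreted ligand of guanylate cyclase C, had 14.73, 14.79, 14.82 and 13.06 in PC61, 14 to 14.59 in PBS and 5.08 to 7 in NP (334-fold, adjusted p = 1.46e-09). Klk1, a tissue kallikrein, had 12.37, 12.68, 12.91 and 11.02 in PC61, 10.57 to 11.88 in PBS and 4.7 to 5.7 in NP (124-fold, adjusted p = 3.85e-09). Cuzd1, an oestrogen-regulated membrane protein of the uterus, had 11.33, 12.27, 12.34 and 8.47 in PC61, 10.02 to 11 in PBS and 4.25 to 4.58 in NP (at least 60.4-fold, adjusted p = 1.07e-06). PC61 array 4 was the lowest in all 3 genes and arrays 1, 2 and 3 were above every PBS array. Akr1c18, the enzyme that inactivates progesterone, had 11.53, 12.42, 12.26 and 9.79 in PC61, 10.5 to 11.25 in PBS and 4.38 to 6.28 in NP (88.6-fold, adjusted p = 2.2e-07). Aqp8, a water channel, had 11.06, 12.15, 12.72 and 8.99 in PC61, 10.17 to 11.04 in PBS and 5.25 to 7.07 in NP (28.8-fold, adjusted p = 2.86e-05). Chosen after its values were seen, Prap1, a secreted protein of pregnant uterine epithelium, had 14.78, 14.78, 14.65 and 14.38 in PC61, 14.53 to 14.77 in PBS and 6.85 to 12.23 in NP (61.7-fold, adjusted p = 4.04e-05). The differences of Guca2b, Klk1, Cuzd1, Akr1c18 and Aqp8 between PC61 and PBS were 0.13, 0.94, 0.58, 0.57 and 0.67, with adjusted p of 0.898, 0.246, 0.656, 0.591 and 0.596.

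Other genes of the non-pregnant uterine epithelium were low in PC61. Of 39 listed 30 were measured, and 15 fell and 0 rose (14.6% and 13.7% of all genes), with 1 rise without PC61 array 1, 2 or 4. Plekhs1, an epithelial signalling adaptor, had 4.93, 6.32, 6.15 and 4.33 in PC61, 4.55 to 5.31 in PBS and 10.51 to 12.36 in NP (69.5-fold lower, adjusted p = 1.04e-07). P2ry14, a receptor for UDP-glucose, had 6.61, 7.53, 7.61 and 6.35 in PC61, 6.4 to 7.12 in PBS and 10.3 to 13.97 in NP (64.9-fold lower, adjusted p = 4.69e-06). Every PC61 array was below every NP array in both, which the rule that chose them required. Arrays 2 and 3 stood above PBS. Ltf, lactoferrin, an oestrogen-induced secretion that neutrophils also hold, had 10.52, 11.49, 10.43 and 7.5 in PC61, 7.81 to 9.56 in PBS and 11.74 to 13.28 in NP (6.48-fold lower, adjusted p = 0.00602). Sprr2f, a cornified envelope protein induced by oestrogen, had 4.98, 9.59, 9.19 and 6.66 in PC61, 5.9 to 6.33 in PBS and 10.71 to 12.98 in NP (23.4-fold lower, adjusted p = 0.000437). Muc1, the mucin of the luminal surface, had 6.54, 8.53, 8.29 and 8.82 in PC61, 8.11 to 8.91 in PBS and 8.52 to 10.82 in NP (3.02-fold lower, adjusted p = 0.0285), and the call ended without PC61 array 1 (log2 difference -1.09) and without NP array 1, 3 or 4 (-1.49 to -1.3). Wnt7a, the Wnt signal of luminal epithelium, had 7.37, 6.36, 6.07 and 6.5 in PC61 and 8.64 to 9.59 in NP (5.87-fold lower, adjusted p = 6.66e-06). Cbr2, a carbonyl reductase, had 6.94, 7.24, 7.45 and 5.07 in PC61 and 10.76 to 11.95 in NP (27.5-fold lower, adjusted p = 1.35e-06).

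Further genes, of several kinds, stood among the deepest falls. Gcnt3, a mucin glycosyltransferase, had 4.94, 4.32, 4.89 and 5.29 in PC61, 5.11 to 5.57 in PBS and 9.17 to 11.42 in NP (43.4-fold lower, adjusted p = 3.24e-08). Fxyd4, a regulator of the sodium pump, had 4.74, 6.57, 6.53 and 4.28 in PC61 and 9.53 to 13.07 in NP (42.5-fold lower, adjusted p = 1.78e-05). Ovgp1, the oviductal glycoprotein, had 5.11, 5.79, 4.9 and 5.53 in PC61, 5.33 to 7.66 in PBS and 9.37 to 11.96 in NP (37.8-fold lower, adjusted p = 9.8e-06). Ccl11, the eosinophil attractant eotaxin, had 5.73, 5.44, 5.66 and 5.2 in PC61, 4.8 to 5.14 in PBS and 8.09 to 12.36 in NP (36.5-fold lower, adjusted p = 1.96e-05). Cyp2e1, a cytochrome P450, had 4.31, 5.05, 5.36 and 4.44 in PC61 and 8.73 to 12.03 in NP (35.9-fold lower, adjusted p = 5.66e-06). In all 5 genes no PC61 array overlapped NP, which the rule that chose them required.

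Receptors of the ovarian steroids were uneven between the PC61 arrays. Pgr, the progesterone receptor, had 4.75, 7.82, 7.62 and 5.24 in PC61, 4.97 to 6.01 in PBS and 7.74 to 8.92 in NP (4.39-fold lower, adjusted p = 0.00924). Arrays 1 and 4 were within or below PBS, and arrays 2 and 3 reached the NP range or its edge. Without arrays 1 and 4 its log2 difference was -0.77 in place of -2.14 (adjusted p = 0.0791). Esr1, the oestrogen receptor, had 8.46, 9.92, 9.32 and 7.22 in PC61, 7.53 to 8.65 in PBS and 9.32 to 10.99 in NP (2.55-fold lower, adjusted p = 0.0407), a call that ended without any 1 of 8 arrays, among them PC61 array 1 (-1.26) and array 4 (-0.85). Greb1, a cofactor induced by oestrogen, had 8.13, 8.82, 8.98 and 6.98 in PC61 and 8.65 to 10.85 in NP (3.92-fold lower, adjusted p = 0.00649; 0.0616 without PC61 arrays 1 and 4, at -1.3). Igf1, a growth factor of the stroma under oestrogen, had 8.56, 9.16, 9.18 and 7.04 in PC61, 7.42 to 7.66 in PBS and 11.1 to 11.62 in NP (7.53-fold lower, adjusted p = 1.88e-05). Il13ra2, a decoy receptor of interleukin-13, was detected on no PC61 array, with 4.25, 4.76, 4.85 and 4.44 in PC61 and 6.24 to 8.25 in NP (at least 3.25-fold lower, adjusted p = 0.000102). Lifr, the receptor of leukaemia inhibitory factor, rose, with 5.24, 7.41, 7.28 and 7.9 in PC61, 7.49 to 7.97 in PBS and 4.53 to 4.82 in NP (at least 3.42-fold, adjusted p = 0.000478). Of 15 measured members of 23 listed, 3 rose and 9 fell.

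Smooth muscle of the uterine wall separated PC61 array 4 from the rest. The list stood 0.03, 0.44, 0.36 and -1.78 above NP on PC61 arrays 1 to 4 beside -1.35 to -0.83 on PBS arrays and -0.22 to 0.27 on NP arrays. Myh11, the myosin heavy chain of smooth muscle, had 11.83, 12.85, 12.65 and 8.02 in PC61, 9.69 to 10.65 in PBS and 12.46 to 13.02 in NP (adjusted p = 0.176). Acta2, smooth muscle actin, had 15.01, 14.92, 14.86 and 13.68 in PC61, 14.05 to 14.54 in PBS and 14.73 to 14.97 in NP (adjusted p = 0.44), and Actg2, its enteric relative, had 14.41, 14.53, 14.48 and 12.39 in PC61, 13.06 to 13.83 in PBS and 13.2 to 14.29 in NP (adjusted p = 0.82). Arrays 1, 2 and 3 lay above every PBS array in all 3 genes and array 4 below. Of 23 measured members of 26 listed, 2 rose and 2 fell (13.7% and 14.6% of all genes). Myl9, a regulatory myosin light chain, had 12.05, 12.63, 12.81 and 10.07 in PC61, 10.39 to 11.24 in PBS and 13.13 to 13.61 in NP (adjusted p = 0.0151), with a log2 difference of -1.52, and of -0.92 without PC61 array 4. Its call ended with only PC61 and NP arrays in the fit (limma adjusted p = 0.0533). Itga7, the integrin that binds muscle to laminin, had 5.65, 6.2, 6.1 and 4.85 in PC61 and 6.45 to 7.39 in NP (adjusted p = 0.00496). Des, desmin, had 13.63, 14.41, 14.34 and 12.54 in PC61 and 12.56 to 13.26 in NP (adjusted p = 0.046), and its call ended without any 1 of 12 arrays (log2 differences 0.65 to 0.91). Casq2, a calcium store protein, had 6.43, 5.54, 5.64 and 4.96 in PC61 and 4.63 to 5.03 in NP (adjusted p = 0.0345), and its call ended without any 1 of 6 arrays (0.5 to 0.79). Rises numbered 0 without PC61 array 1 or 3, 1 without array 2 and 4 without array 4.

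The list of uterine contraction genes showed 1 rise, that of Pgf, and 2 falls among 10 measured of 19 listed (13.7% and 14.6% of all genes). Gja1, the gap junction protein connexin 43, had 12.8, 14.53, 14.26 and 13.4 in PC61, 13.19 to 13.95 in PBS and 12.62 to 13.52 in NP (adjusted p = 0.142; 0.0218 without PC61 array 1, with a log2 difference of 0.98). Arrays 2 and 3 lay above every PBS and NP array. The prostaglandin receptors Ptger2 and Ptger3 did not pass (adjusted p = 0.379 and 0.515), with Ptger2 at 5.27, 5.25, 5.5 and 4.32 in PC61 and 4.28 to 6.79 in NP, and Ptger3 at 5.66, 6.72, 6.92 and 7.92 in PC61 and 6.22 to 8.42 in NP. Prkg1, the cGMP-dependent kinase that relaxes smooth muscle, had 6.25, 6.34, 5.89 and 5.56 in PC61 and 6.4 to 7.24 in NP (adjusted p = 0.0188), and Trpv4, a calcium channel, had 5.89, 6.19, 6.42 and 4.61 in PC61 and 6.17 to 7.22 in NP (adjusted p = 0.0233). Both calls ended without PC61 array 4 (log2 difference -0.62 and -0.67), and that on Trpv4 also without NP array 1 or 3 (-0.97 and -0.96). Pgf, placental growth factor, had 4.92, 5.94, 6.44 and 5.98 in PC61 and 4.52 to 5.46 in NP (adjusted p = 0.0448), a call that ended without any 1 of 12 arrays (0.57 to 0.83). It is an angiogenic factor and not a gene of contraction, although it was in this list. Without PC61 array 4 there were 0 rises and 0 falls, without array 2 or 3 there were 0 rises, and without array 1 there were 2 rises.

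Extracellular matrix genes fell in 12 and rose in 1 of 34 measured members of 40 listed (14.6% and 13.7% of all genes). Lum, lumican of collagen fibrils, had 10.57, 11.7, 11.86 and 10.68 in PC61, 10.3 to 11.53 in PBS and 12.59 to 13.23 in NP (3.5-fold lower, adjusted p = 0.000528). Timp3, a matrix protease inhibitor, had 11.04, 10.32, 10.84 and 9.9 in PC61 and 11.52 to 11.93 in NP (2.3-fold lower, adjusted p = 0.000861), and Mmp9, a gelatinase, had 6.14, 5.37, 5.78 and 5.69 in PC61 and 6.37 to 8.45 in NP (3.04-fold lower, adjusted p = 0.00228). None of these PC61 arrays overlapped NP. Col1a1 had 13.17, 13.23, 13.57 and 11.08 in PC61, 11.96 to 12.59 in PBS and 13.03 to 14.14 in NP (adjusted p = 0.154), and Col1a2 had 10.27, 10.69, 10.45 and 8.82 in PC61 and 9.9 to 11.29 in NP (adjusted p = 0.106; 0.0321 without NP array 2, with a log2 difference of -1.05). Col3a1 had 10.3, 10.69, 10.83 and 9.88 in PC61 and 10.9 to 11.98 in NP (adjusted p = 0.0197; 0.0629 without PC61 array 4, at -0.85). These are the main fibrillar collagens of the uterine wall. Fbln1, fibulin-1, rose, with 11.86, 12.04, 12.28 and 11.09 in PC61 and 10.4 to 10.64 in NP (2.46-fold, adjusted p = 0.000349). The list stood -0.6, -0.19, -0.07 and -1.62 above NP on PC61 arrays 1 to 4 beside -1.15 to -1.03 on PBS arrays. Rises numbered 2 without PC61 array 1 and 3 without array 4.

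Endothelial and angiogenic genes had 5 rises and 9 falls among 22 measured of 28 listed (13.7% and 14.6% of all genes). Emcn, endomucin of venous endothelium, had 10.08, 10.14, 10.38 and 9.67 in PC61, 9.59 to 9.89 in PBS and 10.82 to 11.21 in NP (1.89-fold lower, adjusted p = 0.000492), and Nrp1, a coreceptor of vascular endothelial growth factor, had 10.7, 9.66, 9.93 and 9.91 in PC61 and 10.99 to 11.75 in NP (2.6-fold lower, adjusted p = 0.000217). Cldn5, the tight junction claudin of endothelium, had 9.44, 9.67, 9.86 and 9.45 in PC61 and 8.39 to 8.99 in NP (1.99-fold higher, adjusted p = 0.00118; 0.0823 with median scaling), and Prox1, a factor of lymphatic endothelium and of embryonic organs, had 6.71, 6.02, 5.65 and 6.02 in PC61 and 4.67 to 4.99 in NP (at least 1.89-fold, adjusted p = 0.000489). The PC61 and NP arrays did not overlap in these 4 genes. Cdh5, the cadherin of endothelial junctions, had 8.13, 11.19, 11.19 and 10.83 in PC61, 10.68 to 11.48 in PBS and 8.54 to 9.13 in NP (2.78-fold, adjusted p = 0.0359), with array 1 below NP and the other 3 within PBS. Its call ended without PC61 array 2, 3 or 4 or any NP array (log2 differences 1.19 to 1.55). Pecam1, an adhesion molecule of endothelium, had 7.76, 9.81, 9.71 and 8.53 in PC61 and 8.03 to 8.75 in NP (adjusted p = 0.322; 0.0441 without PC61 array 1, at 0.92). Flt1, a receptor of vascular endothelial growth factor that trophoblast also makes, had 9.24, 9.39, 9.89 and 11.63 in PC61, 11.25 to 11.53 in PBS and 9.86 to 10.13 in NP (adjusted p = 0.995; 0.0254 without PC61 array 4, at -0.54). Rises numbered 3 without PC61 array 2, 3 or 4.

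**Figure D4:**
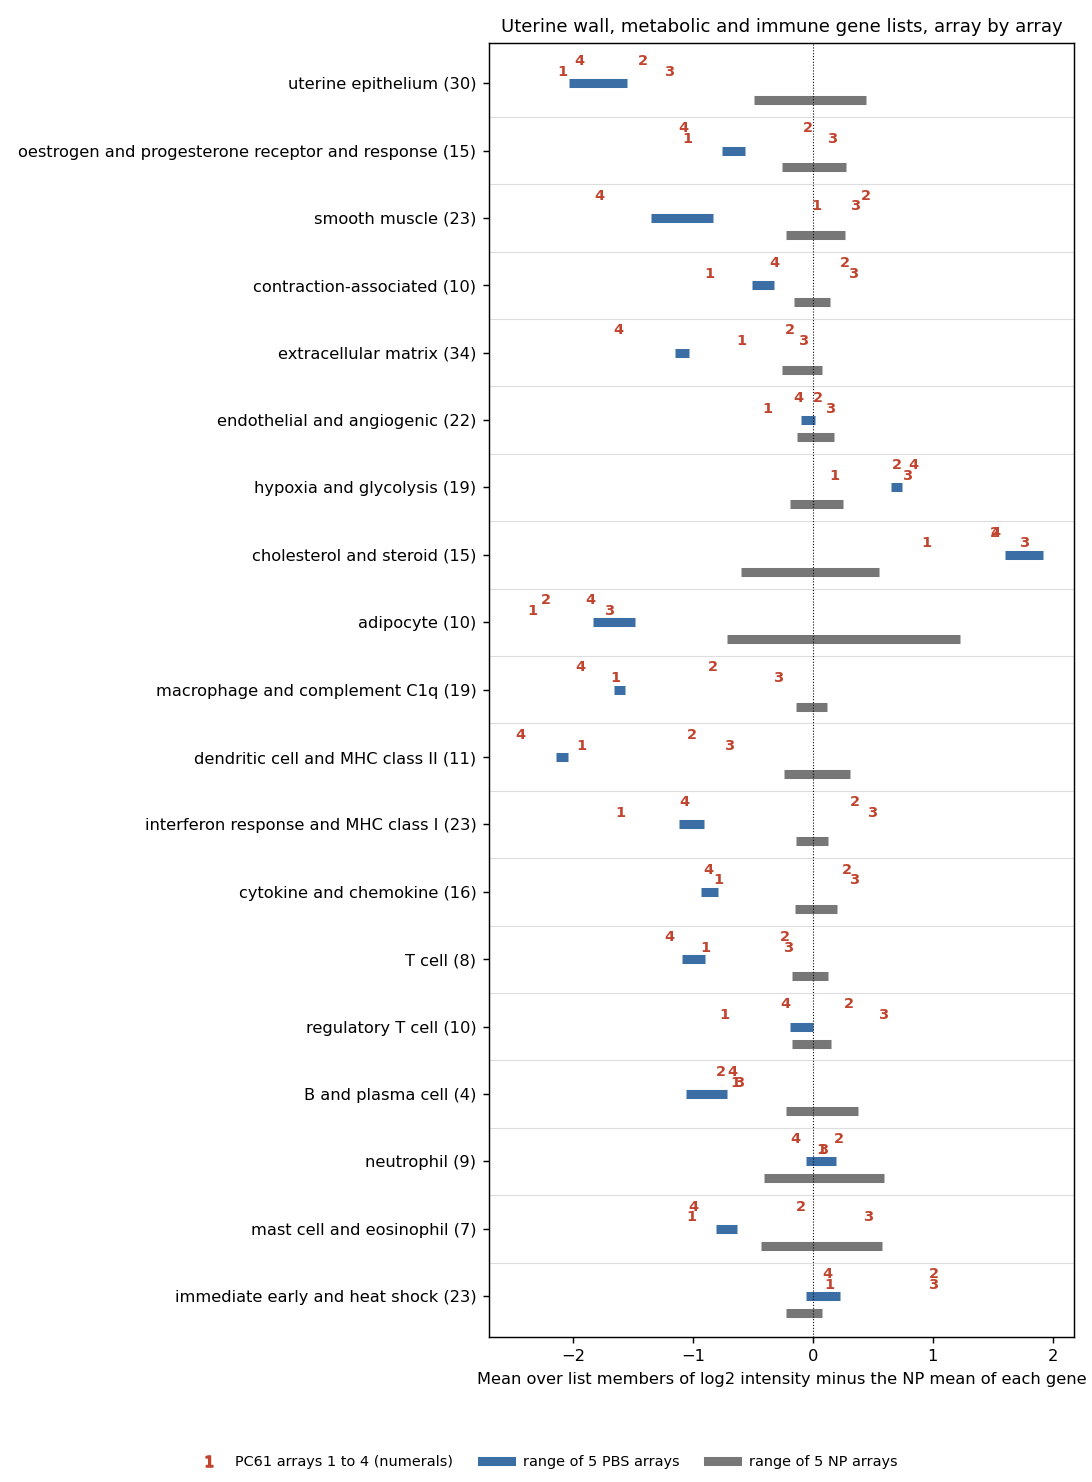
Mean log2 level relative to the NP mean over the measured members of lists of the uterine wall, metabolism and immune cells (number in brackets), with PC61 arrays 1 to 4 as numerals (offset in height for legibility), the range of the PBS arrays in blue and of the NP arrays in grey. In the smooth muscle and matrix lists array 4 lies below PBS, at -1.78 and -1.62, and in the interferon, cytokine and T cell lists arrays 2 and 3 lie nearer to NP than arrays 1 and 4.

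Of the hypoxia and glycolysis genes, the list mean stood 0.18, 0.7, 0.79 and 0.84 above NP on PC61 arrays 1 to 4, with array 1 inside the NP range of -0.19 to 0.25. Slc2a1, the main glucose transporter of placenta and red cells, had 12.01, 12.38, 12.4 and 13.23 in PC61, 12.98 to 13.22 in PBS and 9.15 to 10.53 in NP (6.59-fold, adjusted p = 3.09e-06). Ankrd37, a target of hypoxia-inducible factor, had 7.42, 8.74, 8.91 and 8.63 in PC61, 7.63 to 8.13 in PBS and 5.67 to 6.7 in NP (5.26-fold, adjusted p = 2.81e-05), and Pkm, pyruvate kinase, had 12.55, 12.66, 12.73 and 12.5 in PC61 and 11.62 to 12.12 in NP (1.74-fold, adjusted p = 0.000824; 0.0589 with median scaling). All PC61 arrays were above all NP arrays in these 3 genes. Slc2a3, a second glucose transporter, had 10.17, 10.56, 10.21 and 10.23 in PC61 and 8.25 to 11.44 in NP (adjusted p = 0.299; 0.027 without NP array 2, with a log2 difference of 1.2), and Hk1, hexokinase, had 6.16, 6.63, 6.56 and 6.31 in PC61 and 5.72 to 7.04 in NP (adjusted p = 0.96). Car9, an acid-base enzyme induced by hypoxia, fell, with 4.63, 4.61, 5.28 and 5.34 in PC61 and 5.2 to 6.12 in NP (adjusted p = 0.0148; 0.0776 with median scaling and 0.0581 with the spread estimated for each group). Of 25 hypoxia and glycolysis genes, 19 were measured, and 4 rose and 1 fell (13.7% and 14.6% of all genes).

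Of 26 cholesterol and steroid genes 15 were measured, and 6 rose and 0 fell (2 fell without PC61 array 3). Hsd11b1, which regenerates active glucocorticoid, had 12.12, 13.83, 13.71 and 11.7 in PC61, 12.17 to 12.45 in PBS and 7.86 to 8.76 in NP (25.3-fold, adjusted p = 3.9e-07). Cyp11a1, the first enzyme of steroid synthesis, had 5.11, 9.81, 9.94 and 8.26 in PC61, 7.93 to 8.48 in PBS and 4.33 to 4.76 in NP (at least 8.55-fold, adjusted p = 0.00129). Arrays 2 and 3 were above every PBS array in both, and array 1 was near the background in Cyp11a1. Dhcr7, the last enzyme of cholesterol synthesis, had 7.57, 7.79, 7.71 and 7.48 in PC61 and 6.46 to 6.74 in NP (2.05-fold, adjusted p = 0.000485). Sqle and Lss, earlier enzymes of that pathway, had adjusted p of 0.045 and 0.0473, with Sqle at 10.34, 10.75, 10.57 and 10.88 in PC61 and 7.89 to 10.4 in NP and Lss at 9.11, 8.35, 8.51 and 9.42 in PC61 and 6.66 to 8.73 in NP. The call on Sqle ended without any 1 of 11 arrays (log2 differences 1.02 to 1.47) and that on Lss without any 1 of 10 (0.83 to 1.11). Fdps, farnesyl diphosphate synthase, had 11.21, 11.13, 11.25 and 11.4 in PC61 and 9.06 to 11.52 in NP (adjusted p = 0.15).

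Adipocyte genes fell in 8 and rose in 1 of 10 measured members of 16 listed. Adipoq, adiponectin, had 4.46, 4.9, 5.78 and 4.35 in PC61, 4.31 to 5.75 in PBS and 9.2 to 12.17 in NP (49.8-fold lower, adjusted p = 1.76e-06), and Car3, the carbonic anhydrase of fat, had 5.4, 4.59, 4.48 and 4.38 in PC61 and 7.95 to 11.35 in NP (25.4-fold lower, adjusted p = 1.61e-05). Cidec, a lipid droplet protein, and Lep, leptin, were detected on no PC61 array, with Cidec at 4.39, 4.54, 5.14 and 4.34 in PC61 and 6.55 to 10.01 in NP and Lep at 4.33, 4.88, 4.66 and 4.6 in PC61 and 6 to 8.25 in NP (adjusted p = 0.00027 and 0.000591). The NP arrays were high and unequal and the PC61 arrays were at or near background. In each of these genes, and in Cyp2e1, NP array 2 was the highest and NP array 4 the next. The part that unequal amounts of fat tissue in the samples had in these falls was not tested. Falls numbered 5 without PC61 array 4.

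Macrophage and antigen presentation genes were lower in PC61. Of 19 measured macrophage genes of 23 listed, 12 fell and 1 rose (2 rose without PC61 array 1). C1qc and C1qb, chains of complement C1q that tissue macrophages make, had 7.55, 7.4, 8.58 and 6.86 and 8.27, 8.64, 9.38 and 7.2 in PC61, against 10.21 to 10.58 and 10.69 to 11.06 in NP (6.82-fold and 5.72-fold lower, adjusted p = 3.33e-06 and 3.52e-05). C1qa had 6.44, 6.95, 7.95 and 5.05 in PC61, 5.6 to 6.42 in PBS and 8.03 to 8.84 in NP (3.43-fold lower, adjusted p = 0.00562). Array 3 was the highest PC61 array in all 3 chains and still below NP. Adgre1, a surface marker of mouse macrophages, had 6.36, 6.58, 6.86 and 6.1 in PC61 and 7.76 to 9.41 in NP (4.11-fold lower, adjusted p = 0.000124), and Ms4a7, a macrophage membrane protein, had 6.31, 6.14, 7.1 and 5.56 in PC61 and 8.6 to 9.83 in NP (7.68-fold lower, adjusted p = 3.93e-06). Csf1r, the receptor that macrophages and also trophoblast carry, had 7.44, 8.74, 8.88 and 10.52 in PC61, 9.24 to 10.39 in PBS and 7.95 to 9.11 in NP (adjusted p = 0.552). Of 11 measured dendritic cell and MHC class II genes of 17 listed, 8 fell and 0 rose. H2-Aa had 7.26, 8.06, 8.29 and 6.09 in PC61, 5.93 to 7.22 in PBS and 9.71 to 11.41 in NP (7.78-fold lower, adjusted p = 0.000173). H2-Ab1 had 9.33, 10.77, 11.12 and 7.47 in PC61, 8.03 to 8.79 in PBS and 11.81 to 12.53 in NP (5.67-fold lower, adjusted p = 0.00329), and H2-Eb1 had 8.82, 9.78, 10.28 and 6.47 in PC61, 7.26 to 7.96 in PBS and 11.27 to 11.95 in NP (6.54-fold lower, adjusted p = 0.00208). These encode chains of the MHC class II molecules, and PC61 arrays 1, 2 and 3 lay between PBS and NP. Array 1 was only just above the PBS range in H2-Aa. Cd74, their invariant chain, had 8.41, 10.07, 10.92 and 7.05 in PC61 and 12.03 to 12.47 in NP (8.92-fold lower, adjusted p = 0.000941). Clec9a, a receptor of cross-presenting dendritic cells, had 5.12, 5.28, 5.39 and 4.67 in PC61 and 5.54 to 6.46 in NP (2.08-fold lower, adjusted p = 0.00117).

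Interferon response and MHC class I genes fell in 5 and rose in 1 of 23 measured members of 34 listed (14.6% and 13.7% of all genes). Psmb8, an immunoproteasome subunit, had 5.95, 9.13, 9.74 and 6.62 in PC61, 6.9 to 7.94 in PBS and 10.01 to 10.41 in NP (5.03-fold lower, adjusted p = 0.0095). Psmb9, its partner, had 7.25, 8.81, 9.53 and 6.83 in PC61 and 9.44 to 9.65 in NP (adjusted p = 0.0201), and Irf1, an interferon-induced factor, had 9.68, 10.82, 11.14 and 8.94 in PC61 and 11.12 to 11.47 in NP (adjusted p = 0.0244). Arrays 2 and 3 were close to NP and arrays 1 and 4 well below. The interferon-induced GTPase gene Irgm2 had 7.86, 9.37, 9.64 and 7.98 in PC61 and 9.56 to 9.92 in NP (adjusted p = 0.0254), and Igtp had 7.44, 8.7, 9.06 and 7.61 in PC61 and 8.87 to 9.82 in NP (adjusted p = 0.0255). Irgm1 had 12.59, 12.42, 12.34 and 12.86 in PC61 and 12.21 to 12.83 in NP (adjusted p = 0.695). The calls on Psmb9, Irf1, Irgm2 and Igtp ended without PC61 array 1 (log2 differences -1.15, -0.97, -0.71 and -0.73) and without array 4 (-1.01, -0.72, -0.75 and -0.79). The last 3 of these calls also ended without 1 or 2 of the NP arrays: NP array 1 for Irf1 (-1.07), array 2 for Irgm2 (-0.94), and arrays 2 and 5 for Igtp (-0.83 and -0.94). The list had 5 rises and 1 fall without PC61 array 1, 1 rise and 1 fall without array 4, 0 rises and 8 falls without array 2, and 0 rises and 7 falls without array 3. It stood -1.61, 0.35, 0.5 and -1.07 relative to NP on PC61 arrays 1 to 4 beside -1.12 to -0.91 on PBS arrays.

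Among 16 measured of 32 cytokine and chemokine genes, 5 rose and 6 fell. Il33, an alarmin, had 5.91, 5.74, 6.51 and 5.16 in PC61 and 7.94 to 8.39 in NP (4.92-fold lower, adjusted p = 1.96e-06), and Il18, an inflammasome cytokine, had 5.49, 5.97, 5.93 and 5.93 in PC61 and 6.8 to 7.49 in NP (2.44-fold lower, adjusted p = 0.000143). Cxcl1, a neutrophil attractant, had 7.41, 8.79, 7.66 and 6.84 in PC61, 6.67 to 7.19 in PBS and 4.45 to 4.99 in NP (at least 5.62-fold, adjusted p = 3.51e-06). All PC61 arrays were clear of NP in these 3 genes. Cxcr3, a chemokine receptor of activated T cells, had 4.44, 5, 4.61 and 4.61 in PC61 and 5.47 to 5.83 in NP (at least 1.42-fold lower, adjusted p = 0.000136). Osm, oncostatin M, had 5.19, 7.13, 7.3 and 5.65 in PC61, 4.73 to 5.18 in PBS and 4.64 to 5.22 in NP (2.57-fold, adjusted p = 0.0112). Il1b, interleukin-1 beta, had 4.67, 7.51, 7.36 and 5.87 in PC61, 4.51 to 5.39 in PBS and 4.72 to 5.34 in NP (2.46-fold, adjusted p = 0.0444), and the call ended without any 1 of 12 arrays (log2 differences 0.91 to 1.37). Both were high on arrays 2 and 3, and the list had 3 rises without either of these arrays.

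Most T cell genes were dim in every group. Of 17 listed 8 were measured, and 3 fell and 0 rose (14.6% and 13.7% of all genes). Cd3g had 4.95, 4.95, 4.98 and 4.59 in PC61, 4.35 to 4.84 in PBS and 5.55 to 6.72 in NP (at least 2.03-fold lower, adjusted p = 0.00034), and Cd2 had 4.48, 4.58, 4.76 and 4.43 in PC61 and 5.19 to 5.83 in NP (at least 1.22-fold lower, adjusted p = 0.000485). No PC61 or PBS array detected either of these T cell surface genes. Cd3d had 5.23, 5.1, 4.77 and 4.32 in PC61 and 4.89 to 5.88 in NP (adjusted p = 0.107). Cd3e had 5.34, 5.57, 5.48 and 4.56 in PC61 and 5.36 to 6.38 in NP (adjusted p = 0.0568; 0.0417 without PC61 array 2 and 0.0299 without NP array 1, with log2 differences of -0.75 and -0.76). Thy1, which stromal cells also carry, was brighter, with 9.53, 11.52, 11.58 and 9.04 in PC61 and 11.43 to 12.19 in NP (adjusted p = 0.0292), and its call ended without PC61 array 1 (-1.11) or 4 (-0.94) or NP array 1, 2 or 5 (-1.38 to -1.31).

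Foxp3, the defining factor of the cells that PC61 is used to deplete, had 9.9, 9.05, 9.21 and 9.34 in PC61, 9.32 to 9.67 in PBS and 9.2 to 9.6 in NP. The groups overlapped, with a log2 difference from NP of -0.04 (SE 0.17, adjusted p = 0.889) and from PBS of -0.06 with a 95% interval of -0.43 to 0.31. Foxp3 means were 9.38 in PC61, 9.44 in PBS and 9.42 in NP, while those of the T cell gene Cd3e were 5.24, 4.57 and 5.87. How much of the Foxp3 signal came from regulatory T cells was not tested, and its level does not measure their depletion. Il2ra, which encodes the target of PC61, was not analysed here. Of 10 measured genes of 17 listed as regulatory T cell genes, 3 rose and 3 fell (13.7% and 14.6% of all genes). Tnfrsf9, the costimulatory receptor 4-1BB, had 4.42, 9.04, 9.35 and 10.74 in PC61, 9.72 to 10.28 in PBS and 4.79 to 5.38 in NP (10.1-fold, adjusted p = 0.00963), and Gpr83, a G protein-coupled receptor, had 7, 7.45, 8.19 and 5.76 in PC61 and 8.48 to 10.86 in NP (5.7-fold lower, adjusted p = 0.00161). Array 1 lay below NP in Tnfrsf9, as in Gzmd. Ctla4, an inhibitory receptor of T cells, had 4.3, 6.58, 6.24 and 5.03 in PC61, 4.97 to 5.36 in PBS and 4.27 to 4.61 in NP (adjusted p = 0.0348), and its call ended without PC61 array 2 (log2 difference 0.71) or 3 (0.82) or NP array 1, 3, 4 or 5 (1 to 1.08). Nt5e, the ectonucleotidase CD73, had 8.77, 9.66, 9.63 and 8.99 in PC61 and 7.46 to 9.27 in NP (2.26-fold, adjusted p = 0.0111; 0.0961 with median scaling and 0.0541 with the spread estimated for each group). Tnfrsf18, the receptor GITR, had 4.25, 5.97, 6.5 and 4.43 in PC61 and 4.95 to 6.28 in NP (adjusted p = 0.491).

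S100a8, a calcium-binding protein of myeloid cells that decidua also makes in mice, had 8.61, 13.01, 12.66 and 11.97 in PC61, 11.68 to 12.27 in PBS and 5.47 to 7.43 in NP (36.3-fold, adjusted p = 6.32e-05), with PC61 array 1 the lowest of the pregnant arrays. Retnlg, a resistin-like secretion of myeloid cells, was detected on no PC61 or PBS array, with 4.36, 4.82, 5.17 and 4.46 in PC61 and 10.56 to 11.83 in NP (at least 56.1-fold lower, adjusted p = 2.31e-10). Cxcr2, a chemokine receptor of neutrophils, had 4.49, 5.1, 5.67 and 7.06 in PC61, 5.77 to 6.76 in PBS and 4.31 to 4.64 in NP (adjusted p = 0.0367), a call that ended without PC61 array 3 (log2 difference 1.11) or 4 (0.64) or any NP array (1.1 to 1.19). The granule proteins Mpo and Camp did not pass (adjusted p = 0.295 and 0.223), with Mpo at 9.16, 6.4, 5.53 and 7.79 in PC61 and 5.16 to 7.43 in NP, and Camp at 6.47, 4.72, 4.49 and 4.85 in PC61 and 4.42 to 4.71 in NP. Array 1 was the highest PC61 array in both. Of 9 measured neutrophil genes of 16 listed, 2 rose and 2 fell, beside 13.7% and 14.6% of all genes (1 rose without PC61 array 4). Of 7 measured mast cell and eosinophil genes of 18 listed, 1 rose and 1 fell, near the same shares of all genes (4 fell without PC61 array 3 and 0 without array 1). Kit, the receptor of stem cell factor, had 8.35, 11.21, 10.69 and 10.75 in PC61, 10.16 to 10.96 in PBS and 7.52 to 8.83 in NP (3.83-fold, adjusted p = 0.00672), while Gata2, a factor also of uterine epithelium and stroma, fell (adjusted p = 0.0389) with 9.8, 11.4, 11.52 and 11.86 in PC61 and 11.71 to 13 in NP, a call that ended without any 1 of 6 arrays, PC61 array 1 among them (-0.7). The mast cell proteases did not pass, with Cpa3 at 6.64, 6.44, 7.4 and 5.32 in PC61 and 6.46 to 7.71 in NP, Mcpt4 at 4.61, 5.41, 7.03 and 4.41 in PC61 and 5.74 to 7.22 in NP, and Cma1 at 4.39, 5.33, 6.19 and 5.21 in PC61 and 5.65 to 6.83 in NP (adjusted p = 0.164, 0.101 and 0.067). All 3 passed as lower without PC61 array 3 (log2 differences -0.98, -1.54 and -1.15). Of 4 measured B and plasma cell genes of 11 listed, 1 fell (3 without PC61 array 3). It was Sdc1, syndecan-1, which epithelium also carries, with 6.86, 6.09, 6.11 and 7.19 in PC61 and 7.57 to 8.41 in NP (2.68-fold lower, adjusted p = 0.000714). Cd79b of the B cell receptor had 5.84, 5.33, 5.99 and 5.44 in PC61 and 5.59 to 7.37 in NP (adjusted p = 0.0526), and Mzb1 of plasma cells had 4.78, 4.72, 5.25 and 5.02 in PC61 and 5.05 to 5.6 in NP (adjusted p = 0.0722). Both passed as lower without PC61 array 3 (-0.97 and -0.52), Cd79b also without NP array 2 or 5 (-0.97 and -1.08) and Mzb1 without NP array 1 (-0.5).

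Immediate early and heat shock genes, which can respond to handling of tissue as well as to hormones, rose in 7 and fell in 2 of 23 measured members of 28 listed (13.7% and 14.6% of all genes). Ccn2, connective tissue growth factor, had 12.3, 13.66, 13.54 and 12.12 in PC61, 12.37 to 12.78 in PBS and 10.23 to 10.81 in NP (5.09-fold, adjusted p = 2.89e-05), and Hspb1, a small heat shock protein, had 11.82, 11.63, 12.34 and 11.51 in PC61 and 9.67 to 10.49 in NP (3.07-fold, adjusted p = 9.98e-05). Dusp1, a phosphatase of stress kinases, had 10.9, 11.45, 11.43 and 10.76 in PC61 and 9.78 to 10.25 in NP (2.16-fold, adjusted p = 0.000291), and Klf6 had 11.16, 12.12, 12.32 and 12.07 in PC61 and 10.89 to 11.18 in NP (1.79-fold, adjusted p = 0.00537; 0.138 with median scaling and 0.0799 with the mean of all probes). Arrays 2 and 3 were the highest PC61 arrays in Ccn2, Dusp1 and Klf6. Fos had 8.67, 11.37, 11.09 and 9.48 in PC61, 9 to 10.1 in PBS and 8.5 to 9.73 in NP (adjusted p = 0.12; 0.0125 without PC61 array 1, with a log2 difference of 1.53), Fosb had 5.9, 7.33, 7.12 and 5.91 in PC61 and 5.23 to 6.46 in NP (adjusted p = 0.176), and Jun had 8.06, 8.67, 8.57 and 7.62 in PC61 and 7.73 to 8.33 in NP (adjusted p = 0.476). The list stood 0.14, 1.01, 1.01 and 0.12 above NP on PC61 arrays 1 to 4 beside -0.06 to 0.23 on PBS arrays. Falls numbered 0 without PC61 array 1 or 4.

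**Figure D5:**
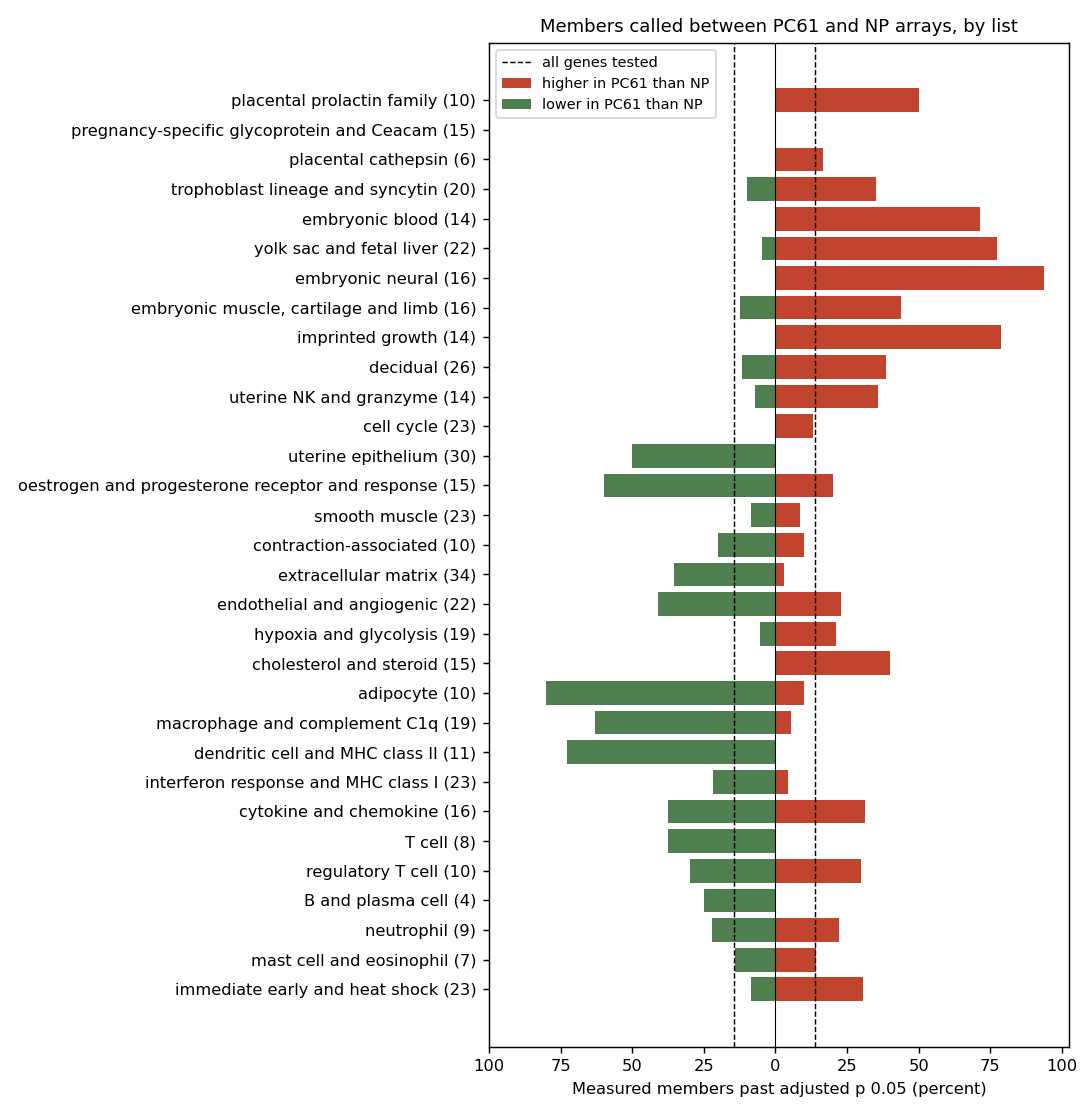
Percent of the measured members of each list (number in brackets) that passed limma's test between PC61 and NP arrays, with higher members drawn to the right and lower members to the left. Dashed lines mark 13.7% and 14.6%, the shares of all genes tested that were higher and lower. The neural list reaches 15 of 16 higher and the pregnancy-specific glycoprotein list 0 of 15.

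A last set asked where all 4 PC61 arrays lay outside both the PBS and the NP arrays. Among genes past the test against NP, 8 were above every PBS and NP array (0.0764% of genes) and 11 were below every one (0.105%). How many genes would lie so by chance was not tested, and limma called 0 of 10478 genes between PC61 and PBS. Adap1, an adaptor of the small GTPase ARF6, had 9.11, 9.84, 9.83 and 9.33 in PC61, 7.92 to 8.74 in PBS and 7.69 to 9 in NP (log2 difference from NP 1.28, adjusted p = 0.00409). Tspoap1, a synaptic scaffold that binds the translocator protein, had 8.09, 9.09, 8.22 and 8.3 in PC61, 7.6 to 7.79 in PBS and 6.42 to 7.35 in NP (1.68, adjusted p = 4.89e-05), and Mcf2l had 9.21, 9.95, 9.78 and 9.21 in PC61, 8.91 to 9.15 in PBS and 7.25 to 8.62 in NP (1.34, adjusted p = 0.00186). Adgra1, an adhesion receptor, had 5.96, 6.34, 5.63 and 5.55 in PC61, 4.88 to 5.51 in PBS and 4.31 to 4.96 in NP (1.3, adjusted p = 0.000229), and Stk11ip, a partner of the kinase LKB1, had 5.97, 6.46, 6.12 and 5.97 in PC61, 5.75 to 5.94 in PBS and 5.12 to 5.39 in NP (0.86, adjusted p = 0.000291). Clca1, a secreted regulator of chloride channels, had 4.71, 4.83, 5.33 and 5.99 in PC61, 6.04 to 6.3 in PBS and 7.36 to 9.75 in NP (-3.77, adjusted p = 8.56e-06), and Sh3tc2, an endosomal protein, had 5.84, 5.78, 5.96 and 5.91 in PC61, 6.02 to 6.52 in PBS and 7.23 to 8.06 in NP (-1.74, adjusted p = 4.22e-06). The gaps to PBS were small, and the tests between PC61 and PBS gave adjusted p of 0.156 for Adap1, 0.184 for Tspoap1, 0.294 for Clca1 and 0.332 for Sh3tc2. Syn2, a synaptic vesicle protein, had 5.68, 5.38, 4.96 and 5.63 in PC61, 5.69 to 6.27 in PBS and 6.59 to 8.35 in NP (-1.91, adjusted p = 0.000437). Adam4, of a family of membrane proteases, and Zfp750, a factor of epidermal differentiation, were detected on no PC61 array. Adam4 had 4.46, 4.58, 4.54 and 4.45 in PC61 and 5.24 to 5.94 in NP (limma adjusted p = 0.000541). Zfp750 had 4.34, 4.38, 4.41 and 4.54 in PC61 and 4.55 to 6.04 in NP (limma adjusted p = 0.00889, and 0.0589 with the spread estimated for each group). Both genes were at background on PC61 arrays, so their place below the other groups is poorly measured.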

How the data were processed

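RNA from mouse uterus was measured on 14 Illumina BeadChip arrays, 4 PC61, 5 PBS and 5 NP. Per the file headers, the authors deposited an average intensity for each probe and array and a detection p-value for each, not normalized between arrays; the scanner software and genome build are not given in the sources used for this text. A further deposited table holds the authors' normalized log2 values, whose method and centring are not stated, and was used as an alternative only. Its column medians lay between 7.96 and 7.99.

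Intensities were background-corrected, quantile normalized and log2 transformed with neqc of limma 3.58.1 in R 4.3.3 (offset 16). Probes were kept where at least 4 arrays had a detection p under 0.01, and the probe with the highest mean stood for its gene. A linear model of the 3 groups was fitted with limma's moderated test (lmFit and eBayes), and p-values were adjusted over 10478 genes by the Benjamini-Hochberg method. The number of arrays limits the precision.

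Named are the 10 largest rises and falls whose groups did not overlap, the first 3 measured members of each of 31 lists whatever their values, up to 4 members of each list with the lowest adjusted p among those past the threshold, 5 rises and 5 falls outside both other groups, and Foxp3. The comparison, the lists and the rule were chosen with earlier results of these data known. Arrays of equal replicate number were not treated as pairs. Deviations of PC61 and NP arrays of the same number correlated at 0.0533, -0.0487, 0.142 and -0.00914. The NP array of the same number correlated best for PC61 arrays 1 and 3, and another NP array for PC61 arrays 2 and 4. So few arrays cannot show whether a pairing existed. The alternatives were other normalizations, filters, probe choices and error models, a replicate block, and leaving out or singling out arrays.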

Additional observations from a re-analysis of the deposited data

Results flagged for a closer look

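In 38 of 660 groups tested (5.76%), 1 array lay far from the others of its group by Dixon's criterion, which chance meets in about 1 of 20 groups. Of these, 21 were in the PC61 group, 8 in the PBS group and 9 in the NP group.

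PC61 array 4 stood apart in 12 genes. It was low in Acta2 at 13.68, Actg2 at 12.39, Col1a1 at 11.08, Guca2b at 13.06, Fkbp5 at 8.27, Wnt4 at 6.77 and Cd3g at 4.59. It was high in Ctsm at 10.67, Psg16 at 7.57, Hand1 at 6.76, Syna at 7.04 and Synb at 8.64. PC61 array 1 stood apart, always low, in Gzmd at 4.84, Gzme at 4.56, Gzmf at 4.55, Gzmg at 4.44, Prl8a2 at 5.85, Cdh5 at 8.13 and Il18 at 5.49. PC61 array 2 was high in Slc2a3 at 10.56, and PC61 array 3 was low in Elavl3 at 9.47.

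Among PBS arrays, array 5 was high in Ctsm at 10.33 and Psg16 at 7.32 and low in H2-Ab1 at 8.03 and Thy1 at 9.37, array 3 was high in Ovgp1 at 7.66 and Peg3 at 11.73, array 1 had Ctla4 at 5.36 and array 4 had Cd79b at 5.84. Among NP arrays, array 3 had Gzme at 4.9, array 2 had Hbb-bh1 at 5.09 and P2ry14 at 10.3, and array 4 had Prox1 at 4.67. Of the list levels, NP array 3 stood apart in the muscle list at 0.11, the cathepsin list at 0.2 and the NK list at -0.19, NP array 2 in the matrix list at -0.26, and NP array 5 in the immediate early list at -0.22.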

How the results depend on the processing

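Between PC61 and NP arrays 2967 genes changed. The count was 1794 with median scaling, which put the median of all genes at -0.15 (880 higher, 914 lower), 1842 with PC61 array 3 as a group of its own, and 2454 to 3095 without any single array. With only PC61 and NP arrays in the fit, so that PBS arrays did not enter the estimate of the spread, the count was 2155. The spread estimated for each group gave 2124 genes, 54.4% of them higher, in place of 48.5%. Changes of at least 2-fold numbered 1629, and 808 without background correction, 790 with the authors' normalized values, 2809 with PC61 array 4 as a group of its own and 1486 to 1849 without any single array. With a replicate block, although arrays of equal number were not treated as pairs in the main fit, 2619 genes changed. Between PC61 and PBS arrays 0 genes changed, against 303 with median scaling, 4027 with array weights, 3564 without PC61 arrays 1 and 4, 0 to 1529 without any single array, and 997, 2033, 2309 and 5 with PC61 array 1, 2, 3 or 4 as a group of its own.

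With PC61 arrays taken singly, array 1 as a group of its own gave median log2 differences of -0.09 for the placental prolactin list and -0.33 for the decidual list, and array 3 gave -0.15 for the cell cycle, 0.45 for the regulatory T cell and 0.28 for the mast cell list. The cell cycle list was also at -0.13 with array weights and -0.15 without arrays 1 and 4, and the T cell list at 0.04 with genes detected on at least 9 arrays. Of lists with medians nearer 0, smooth muscle (-0.25) was at 0.27 without array 4 and 0.53 without arrays 1 and 4, contraction (-0.21) at 0.15 without array 1, and interferon (-0.45) and regulatory T cell (-0.22) at 0.35 and 0.29 without arrays 1 and 4. Of single genes, array 1 gave Prl2c2 -0.1, Prl4a1 -0.11, Gzmd -1.69, Pgf -0.13, Cdh5 -0.73, Il1b -0.38, Ctla4 -0.18 and Tnfrsf9 -0.63. Array 2 gave Actn2 -0.07, array 3 gave Myog -0.01, and array 4 gave Actg2 -1.42, Des -0.31 and Flt1 1.59. The cause was not tested.

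Of 189 named genes 147 were called, and 107 of these were kept in every setting but the single-array ones. Genes near background have poorly measured folds, and 4 unlike PC61 arrays limit what a group mean describes.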
